A study of Mus musculus with 6 samples.

Results

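The expression landscape of primary brite adipocytes early in differentiation was read from the 3 nontargeting control libraries of a set of 6 RNA-seq libraries. They were chosen by their sample labels, and the other 3 libraries, from cells with knockdown of the long noncoding RNA *Ctcflos*, were not used. The cells were preadipocytes of the stromal-vascular fraction of inguinal white adipose tissue (WAT) of 129SvEv mice, which had 2 days of induction and then reached day 1 of differentiation in medium with rosiglitazone, a ligand of PPARγ. They were then reverse transfected with a nontargeting LNA Gapmer, an antisense oligonucleotide, at 50 nM and lysed 24 h later. By the study's methods the donors were male mice of 5 to 6 weeks, and the induction medium held insulin, triiodothyronine, isobutylmethylxanthine, indomethacin and dexamethasone besides rosiglitazone. All 3 libraries therefore come from hormone-treated and transfected cells, and no library of untransfected cells was analysed here. Nothing in the labels or methods says whether the 3 libraries stem from separate mice, separate isolations or separate wells, or whether animals were pooled, so their spread may be technical. The libraries were made from total RNA with a stranded kit. Abundance is given in RPKM, read counts divided by the length of the transcript in kilobases and by the depth of the library, a unit that is already per length and so allows levels of different genes to be set side by side. The value of a gene is the mean over its curated RefSeq mRNA accessions, and 20461 gene symbols of 52089 in the table have one.

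Brite adipocytes, also called beige adipocytes, are fat cells of white depots that can switch on a thermogenic program. Like all adipocytes they are built by the nuclear receptor PPARγ together with C/EBP factors, which turn on the genes for fatty acid uptake, triglyceride storage and adipokine secretion. Their thermogenic capacity rests on many mitochondria and on uncoupling protein 1 (UCP1), which lets protons flow back across the inner mitochondrial membrane so that the energy of fuel oxidation is released as heat. In culture, rosiglitazone is used to drive precursors of inguinal fat into this state, and full thermogenic gene expression is usually reached only after several more days.

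The 3 libraries, called control 1, 2 and 3, hold an estimated 78.0, 79.2 and 62.9 mio mapped reads. A single read that falls on 1 kb of transcript is worth 0.0126 to 0.0159 RPKM, and a count of 0 allows a level of up to 0.0379 to 0.0477 RPKM over that length, counting error only. The study's methods give paired-end reads at a lower number per sample. Whether the mates of a pair were counted singly in these values was not tested. If so, this limit and the counting errors given below are too small. With 1 group of 3 libraries no test was possible, and the values are given with the SD (n = 3). Control 2 stood apart. Across the 9274 genes whose mean reached 1 RPKM, 91 differed by more than 1.5-fold between controls 1 and 3, against 589 between controls 1 and 2 and 522 between controls 2 and 3. Control 2 was the lowest of the 3 libraries in 57.2% of these genes and the highest in 22%, or in 41% and 35.9% after scaling by the median of ratios. Its summed RPKM over genes was 127636, against 139787 and 143380 in controls 1 and 3. The genes it moves are described after the landscape.

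Of the 20461 genes, 12420 reached a mean of 0.1 RPKM, 9274 (45.3%) reached 1 RPKM, 2536 reached 10 RPKM and 176 reached 100 RPKM. Counts of list members that reached 1 RPKM are to be read beside this 45.3% of all genes. A mean of 1000 RPKM was passed by 4 genes, *Fabp4*, *Scd1*, *Lars2* and *Adipoq*, and 4510 genes were at 0 in all 3 libraries. The 10 highest genes held 9.80, 10.2 and 9.84% of the summed RPKM in controls 1, 2 and 3, and the 100 highest held 29.1, 28.7 and 29.5%. From 462 to 489 genes were needed for 50% of the sum. Of the 100 highest genes, 83 were among the 100 highest in every library. By list, 14 of the 100 highest genes belonged to the adipocyte list, 11 to the respiratory chain, 9 to the cytoskeleton list and none to the list of brite and brown thermogenic genes.

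**Figure D1:**
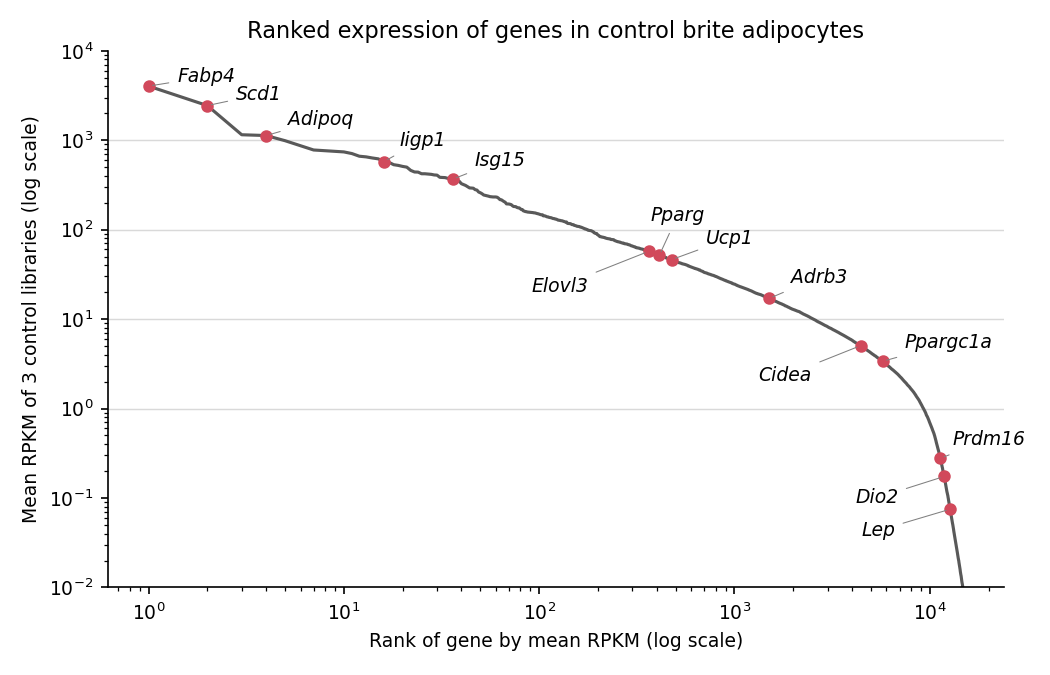
Mean RPKM of the 3 control libraries (vertical axis, log scale) against the rank of the gene by mean RPKM (horizontal axis, log scale), with the genes named in red points. *Fabp4* stands at rank 1 and *Adipoq* at rank 4, *Ucp1* at rank 476 lies close to *Pparg* at rank 412, and *Prdm16* and *Dio2* lie under 1 RPKM.

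The gene with the highest level was *Fabp4* (chromosome 3, 10204088 to 10208576 in GRCm38, minus strand), which encodes the fatty acid carrier of the adipocyte cytosol. It measured 4182, 3668 and 4227 RPKM in controls 1, 2 and 3 (4026 ± 311), and none of its values came down to those of the next gene. *Scd1*, the desaturase that makes oleate from stearate, was second with 2972, 1836 and 2507 RPKM (2438 ± 571). Because its transcript is 4832 bases long, *Scd1* took up more of the sequencing than *Fabp4*, with 1.44, 0.887 and 1.21% of all mapped reads against 0.375, 0.329 and 0.379%. *Adipoq*, which encodes the adipokine adiponectin, was the steadiest of the 4 genes over 1000 RPKM, at 1111, 1087 and 1184 RPKM (1127 ± 50.6).

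The third place was held by *Lars2*, the mitochondrial leucyl-tRNA synthetase, with 773, 1552 and 1126 RPKM (1150 ± 390). Its 3 libraries ranked as did those of the highest line for 18S ribosomal RNA (*Rn18s*), which measured 4909, 9496 and 6720 RPKM. Control 2 was highest and control 1 lowest in both. The part of ribosomal RNA in the *Lars2* value was not tested, and the level of this gene is uncertain.

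Places 5 to 25 mixed housekeeping, lipid, matrix and interferon genes. *Eef1a1*, a translation elongation factor, reached 987 ± 36.3 RPKM, *Rpl41*, a ribosomal protein, 867 ± 60.5 RPKM, *Ftl1*, the ferritin light chain, 777 ± 59.9 RPKM, and *Actb*, cytoplasmic β-actin, 751 ± 191 RPKM. The lipid genes among them were *Lpl*, the lipase that frees fatty acids from lipoproteins (754, 812 and 726 RPKM), *Cidec*, which fuses lipid droplets (642, 638 and 673 RPKM), *Gpd1*, which makes glycerol 3-phosphate (566 ± 51.0 RPKM), *Plin2*, a lipid droplet coat protein (509 ± 60.8 RPKM), and *Dbi*, which binds acyl-CoA (440 ± 28.4 RPKM). *Car3*, a carbonic anhydrase abundant in fat, reached 662 ± 77.6 RPKM, *Mgst1*, a microsomal glutathione transferase, 709 ± 44.3 RPKM, *Cav1*, the coat protein of caveolae, 633 ± 23.6 RPKM, and *Apoe*, an apolipoprotein, 441 ± 57.7 RPKM. Of 24 pairs of neighbours in this order of 25 genes, 20 had overlapping ranges, and from *Rpl41* down no gene was separated from the next. The remaining genes were *Aldoa*, a glycolytic aldolase (740 ± 110 RPKM), *Sparc* and *Serpinh1*, a matrix glycoprotein and a collagen chaperone (619 ± 36.3 and 460 ± 41.5 RPKM), *Anxa2* and *S100a6*, calcium-binding proteins (532 ± 47.1 and 500 ± 49.0 RPKM), and the interferon-induced genes *Iigp1*, *Ifit3* and *Ifitm3* (576 ± 139, 523 ± 111 and 422 ± 57.1 RPKM).

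The adipocyte program was in place at this stage. Of 39 genes of the adipocyte list, 38 reached 1 RPKM, 35 reached 10 RPKM and 16 reached 100 RPKM, with a median of 83.5 RPKM beside 4.71 RPKM over all genes of at least 1 RPKM. *Cd36*, a fatty acid transporter, measured 366, 292 and 320 RPKM, *Acsl1*, which activates fatty acids, 353, 374 and 367 RPKM, and *Plin1*, the droplet coat protein that gates lipolysis, 98.5, 89.5 and 105 RPKM. The lipases *Pnpla2* and *Lipe*, which start the breakdown of stored triglyceride, reached 133 ± 3.60 and 88.0 ± 8.28 RPKM. The enzymes that close triglyceride synthesis, *Dgat1* and *Dgat2*, were lower at 31.1 ± 1.66 and 18.4 ± 0.360 RPKM, and *Agpat2*, an acyltransferase of the same pathway, higher at 155 ± 23.9 RPKM. Fatty acid synthesis varied more between libraries. *Thrsp*, a lipogenic protein, measured 197, 94.3 and 186 RPKM, *Fasn*, the fatty acid synthase, 87.2, 52.8 and 65.1 RPKM, and *Acly*, which supplies its acetyl-CoA, 96.9, 65.3 and 88.2 RPKM, with control 2 lowest in each. Other adipocyte genes stood lower in the order. *Slc2a4*, the insulin-responsive glucose transporter, measured 21.3, 13.7 and 20.1 RPKM, *Retn*, which encodes resistin, 14.9, 15.6 and 17.2 RPKM, and *Cfd*, which encodes adipsin, 12.9, 9.28 and 11.9 RPKM. *Lep*, which encodes leptin, the hormone of large white adipocytes, was the lowest at 0.0787, 0.0775 and 0.0683 RPKM and is the only member under 1 RPKM.

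Of 44 genes of adipokines and secreted factors 37 reached 1 RPKM, beside 45.3% of all genes, and 8 reached 100 RPKM. Their median was 12.8 RPKM, beside 4.71 RPKM over all genes of at least 1 RPKM. Behind *Adipoq*, *Lpl*, *Sparc* and *Apoe* stood *Ctsd*, a lysosomal protease, at 385 ± 39.9 RPKM and *Angptl4*, which inhibits LPL, at 177, 159 and 208 RPKM. *Nampt*, an enzyme of NAD synthesis also called visfatin, measured 68.0, 36.0 and 58.0 RPKM and *Rbp4*, the carrier of retinol, 60.2, 35.8 and 59.7 RPKM, both lowest in control 2. *Fgf21*, a metabolic hormone, was at 5.32, 5.01 and 4.8 RPKM and *Bmp4*, a factor that commits precursors to fat, at 0.161, 0.481 and 0.144 RPKM.

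Among the transcription factors of adipogenesis, *Cebpa* and *Pparg* were the highest and varied little. *Cebpa* measured 75.1, 72.5 and 73.1 RPKM (73.6 ± 1.37), and *Pparg* measured 51.7, 48.1 and 54.6 RPKM (51.5 ± 3.26). The 2 RefSeq accessions of *Pparg* gave 52.8 and 50.1 RPKM, a gap smaller than the spread between libraries. *Cebpb* and *Cebpd*, which act in the first hours of induction, were lower at 12.4, 7.21 and 12.7 RPKM and 4.10, 2.31 and 4.59 RPKM, and control 2 had the lowest value of both. The retinoid receptor *Rxra*, the partner of PPARγ on DNA, measured 6.80, 6.79 and 6.70 RPKM. *Klf15*, a factor of later adipocytes, reached 2.46 ± 0.446 RPKM.

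Thermogenic genes ranged from 57.2 RPKM in *Elovl3* to 0.168 RPKM in *Bmp8b*, with only *Slc27a2* lower. At 0.0230 RPKM *Slc27a2* lies under about 0.05 RPKM, where depth limits the level. Of 30 genes of the brite and brown list, 23 reached 1 RPKM, 10 reached 10 RPKM and none reached 100 RPKM. The highest was *Elovl3*, a fatty acid elongase induced in brown fat, at 59.5, 53.5 and 58.7 RPKM (57.2 ± 3.26). *Ucp1* (chromosome 8, 83290352 to 83298452 in GRCm38, plus strand) measured 61.5, 24.7 and 52.4 RPKM (46.2 ± 19.1), rank 476 of all genes. It rested on 7843, 3204 and 5388 reads, and control 2 was at 0.434 of the mean of the other 2 libraries. In such bulk RNA, fewer cells that express a gene and less RNA per cell cannot be told apart. *Ucp1*, *Elovl3* and *Slc25a20*, the mitochondrial carrier of acylcarnitines (51.0 ± 4.94 RPKM), had overlapping ranges, and their order is not fixed by these data.

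The further thermogenic genes followed in steps that mostly overlapped, as 24 of 29 pairs of neighbours did. *Cox8b*, a subunit of cytochrome c oxidase made in brown fat and muscle, measured 29.4, 15.1 and 20.2 RPKM, and *Cox7a1*, another such subunit, 12.4, 6.0 and 10.2 RPKM. *Cidea*, a droplet protein that marks brown and brite fat, measured 7.07, 3.41 and 4.66 RPKM. *Adrb3*, the β3-adrenergic receptor through which cold acts on fat, measured 17.9, 15.2 and 18.1 RPKM. In *Ucp1*, *Cox8b*, *Cox7a1* and *Cidea* control 2 was lowest and control 1 highest, and in *Elovl3* and *Adrb3* the 3 libraries lay closer together. Control 2 was lowest in 21 of the 23 members with at least 1 RPKM, or 18 after scaling by the median of ratios, where 57.2 and 41% of all genes were. The adipocyte list was similar, with control 2 lowest in 32 of 38 such members, or 26 after scaling.

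The regulators of the thermogenic program named next had means of 10.1 RPKM or less. *Ebf1* and *Ebf2*, transcription factors that open brown fat enhancers, measured 8.41 ± 0.118 and 7.37 ± 1.1 RPKM, *Esrra*, a nuclear receptor of oxidative metabolism, 10.1 ± 2.10 RPKM, *Ppara*, another, 12, 6.72 and 11.3 RPKM, and *Nfia*, which acts with PPARγ at brown fat genes, 3.93 ± 0.615 RPKM. The coactivators *Ppargc1a* and *Ppargc1b*, which drive mitochondrial biogenesis, measured 3.37 ± 0.421 and 3.22 ± 0.132 RPKM. *Prdm16*, the coregulator that sets brown fat identity, was under 1 RPKM at 0.322, 0.295 and 0.217 RPKM, rank 11308. Owing to its transcript of 8512 bases it still rested on 214, 199 and 116 reads. *Dio2*, the deiodinase that makes active thyroid hormone in stimulated brown fat, measured 0.121, 0.174 and 0.227 RPKM, and *Bmp8b*, a secreted factor of brown fat, 0.168 ± 0.0377 RPKM. The ranges of *Prdm16*, *Esrrg* (0.226 ± 0.0763 RPKM), a nuclear receptor, and *Dio2* overlapped.

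Of 12 genes proposed as labels of beige or classical brown lineages 5 reached 1 RPKM, a share near the 45.3% of all genes. *Slc36a2*, an amino acid transporter of brown and beige fat, was the highest of 12 at 48.0, 37.1 and 47.9 RPKM. Of the labels of beige cells, *Ear2* measured 3.70 ± 0.452 RPKM, *Epsti1* 1.1 ± 0.314 RPKM, *Cited1* 0.726 ± 0.0639 RPKM, *Tmem26* 0.552 ± 0.114 RPKM and *Tbx1* 0.0629 ± 0.0463 RPKM. *Tnfrsf9*, which encodes the surface protein CD137, was at 0.0183 ± 0.0106 RPKM, and *Zic1*, a label of interscapular brown fat, was at 0 in controls 1 and 3 and at 0.0151 RPKM in control 2. Both are at or below what 3 reads give on a transcript of 1 kb.

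**Figure D2:**
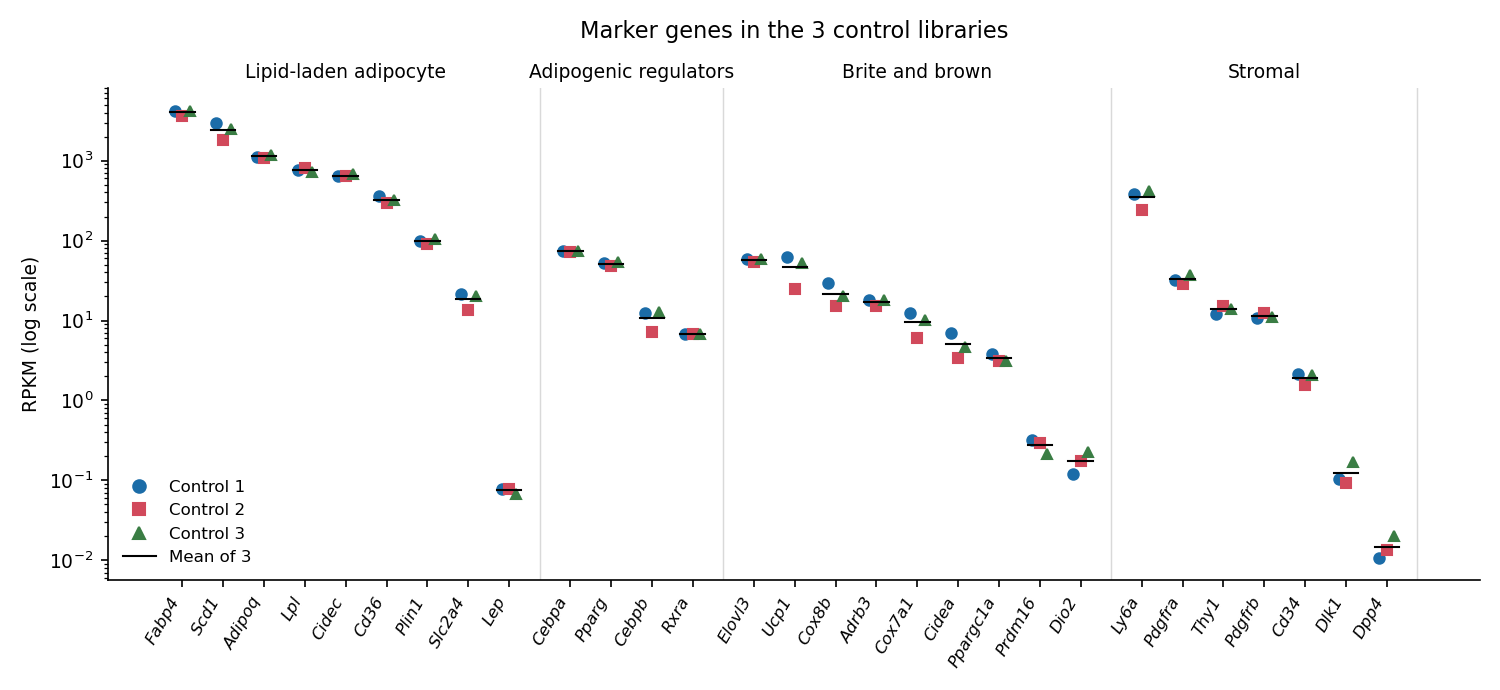
RPKM (vertical axis, log scale) of marker genes in control 1 (circles), control 2 (squares) and control 3 (triangles), with the mean as a bar. Adipocyte genes reach 4026 RPKM, *Ucp1* shows a gap between control 2 at 24.7 RPKM and the others at 61.5 and 52.4 RPKM, and *Lep*, *Dlk1* and *Dpp4* lie under 1 RPKM.

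Most genes of mitochondrial fuel use were well expressed. Of 76 respiratory chain genes encoded in the nucleus, 74 reached 1 RPKM and 68 reached 10 RPKM, with a median of 44.2 RPKM. *Atp5b*, the catalytic subunit of ATP synthase, led at 444, 360 and 442 RPKM, followed by *Cox8a*, the ubiquitous counterpart of *Cox8b*, at 435, 359 and 427 RPKM. All 24 genes of the TCA cycle list reached 1 RPKM (median 51.8 RPKM), from *Sdhd*, a succinate dehydrogenase subunit, at 185 ± 15.2 RPKM and *Cs*, citrate synthase, at 181 ± 17.7 RPKM to *Mpc1*, a subunit of the pyruvate carrier, at 9.07 ± 1.88 RPKM. Fatty acid oxidation had the same share, with 24 of 24 genes over 1 RPKM and a median of 45.3 RPKM. *Acaa2*, the mitochondrial thiolase, measured 176, 122 and 170 RPKM. Of the carnitine palmitoyltransferases that admit fatty acids to mitochondria, *Cpt1b* at 22.8 ± 2.85 RPKM stood above *Cpt1a* at 14.3 ± 0.671 RPKM, and their ranges did not overlap. Control 2 was lowest in 71 of 74 respiratory chain, 23 of 24 TCA cycle and 23 of 24 fatty acid oxidation genes, beside 57.2% of all genes, and in 67, 22 and 22 of them after scaling by the median of ratios, beside 41%.

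Glycolytic genes had a median of 27.3 RPKM, and control 2 was lowest in 21 of 21 members of at least 1 RPKM, before and after scaling by the median of ratios. Over all genes it was lowest in 57.2% before and 41% after scaling. *Ldha*, lactate dehydrogenase A, measured 450, 286 and 490 RPKM, *Pkm*, pyruvate kinase, 228, 153 and 252 RPKM, and *Slc2a1*, the basal glucose transporter, 18.4, 8.83 and 18.7 RPKM. Among the cholesterol genes control 2 was lowest in 11 of 21 members, no more often than over all genes at 57.2%, and after scaling it was lowest in 7 and highest in 8. *Sqle*, squalene epoxidase, measured 21.5, 22.2 and 22.9 RPKM. *Insig1*, which holds the sterol sensor in the endoplasmic reticulum, was the highest of this list at 248, 197 and 265 RPKM, and *Hmgcs1*, a synthase early in the pathway, reached 130 ± 9.35 RPKM.

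**Figure D3:**
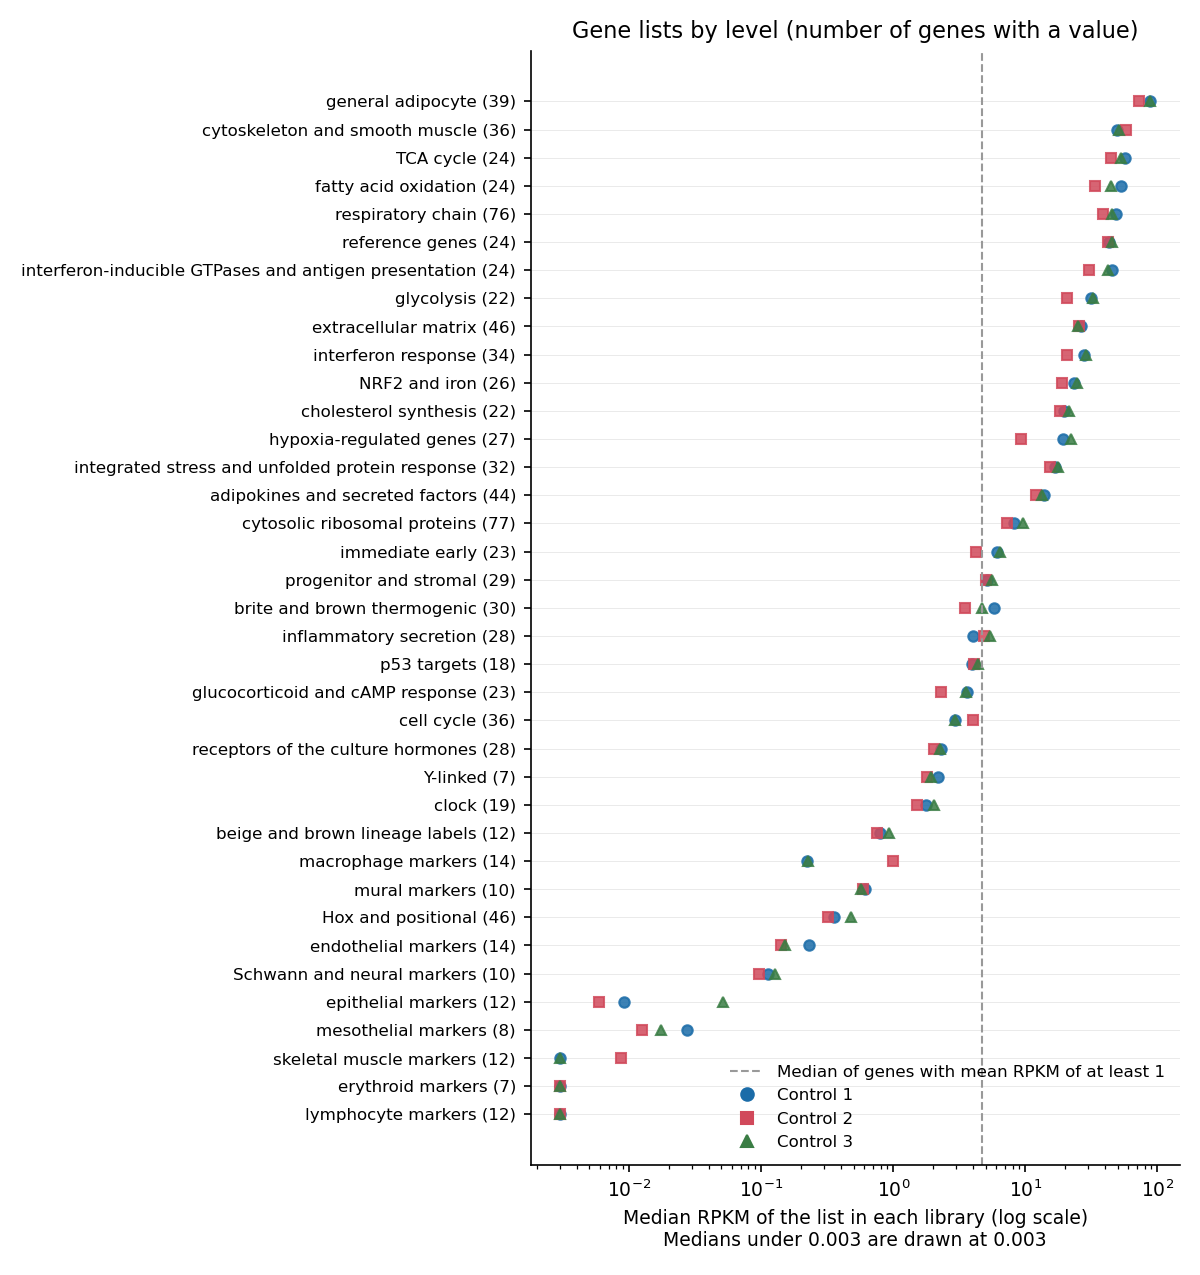
Median RPKM of each gene list (horizontal axis, log scale) in control 1 (circles), control 2 (squares) and control 3 (triangles), with the number of genes that have a value in brackets and the median of all genes of at least 1 RPKM, 4.71, as a dashed line. The adipocyte list is highest with medians of 87.2, 72.5 and 88.2 RPKM, the thermogenic list lies near the dashed line at 5.80, 3.47 and 4.73 RPKM, and lymphocyte and erythroid markers have medians of 0, drawn at the left edge.

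Of 28 receptors and signal proteins for the hormones of the medium, 20 reached 1 RPKM, beside 45.3% of all genes. *Nr3c1*, the glucocorticoid receptor, measured 34.9, 27.5 and 34.7 RPKM, and *Insr*, the insulin receptor, 10.4, 9.25 and 8.83 RPKM. Of the thyroid hormone receptors, *Thrb* and *Thra* measured 3.16 ± 0.198 and 2.75 ± 0.427 RPKM, and their ranges overlapped. *Irs1*, the first substrate of the insulin receptor, stood at 14.6 ± 1.28 RPKM and its relative *Irs2* at 2.47 ± 0.0467 RPKM, while *Igf1r*, the receptor for insulin-like growth factors, was at 0.676 ± 0.0674 RPKM. Among β-adrenergic receptors *Adrb3* at 17.0 ± 1.61 RPKM stood far above *Adrb1* at 0.359 ± 0.0866 RPKM, with no overlap. Of the phosphodiesterases, which break down cAMP, *Pde3b* led at 53.7, 33.8 and 44.8 RPKM.

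Genes that glucocorticoids or cAMP induce were uneven, and 16 of 23 reached 1 RPKM, beside 45.3% of all genes. *Mt1* and *Mt2*, metallothioneins that bind zinc and respond to glucocorticoids, measured 289, 143 and 323 RPKM and 73.6, 31.2 and 76.0 RPKM. *Tsc22d3*, a direct target of the glucocorticoid receptor, stayed at 21.1, 21.1 and 22.2 RPKM, and *Fkbp5*, another, at 3.62, 4.10 and 4.07 RPKM. Of the rapid cAMP targets, *Nr4a1* measured 0.516 ± 0.0861 RPKM, *Nr4a2* 0.0848 ± 0.0119 RPKM and *Nr4a3* was at 0 in all 3 libraries. Control 2 was lowest in 15 of 16 members of at least 1 RPKM, beside 57.2% of all genes, and in 13 after scaling by the median of ratios, beside 41%.

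Matrix genes and some markers of stromal precursors were well expressed. Of 46 matrix genes 45 reached 1 RPKM. *Postn*, periostin, measured 313, 323 and 321 RPKM, *Col3a1*, collagen type III, 267, 235 and 274 RPKM, and *Col6a1*, collagen type VI, 186, 181 and 209 RPKM. *Col1a1* was lower than its partner chain *Col1a2*, at 29.9 ± 5.07 against 90.6 ± 1.59 RPKM. Of 29 progenitor genes 22 reached 1 RPKM, beside 45.3% of all genes. *Ly6a*, the surface antigen Sca-1, was the only one over 100 RPKM, at 383, 243 and 414 RPKM. The PDGF receptors *Pdgfra* and *Pdgfrb*, by which adipocyte precursors are sorted, measured 32.7 ± 3.98 and 11.4 ± 0.925 RPKM, and *Thy1* and *Cd34*, further surface markers, 13.8 ± 1.52 and 1.93 ± 0.310 RPKM. *Dlk1*, which marks preadipocytes and holds back their differentiation, was at 0.105, 0.0925 and 0.170 RPKM, and *Dpp4* and *Pi16*, markers of early interstitial progenitors, at 0.0148 ± 0.00478 and 0.131 ± 0.0351 RPKM.

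Interferon-stimulated genes were among the most abundant transcripts of these cells. Of 34 genes of the interferon list with a value, 31 reached 1 RPKM, 24 reached 10 RPKM and 5 reached 100 RPKM, with a median of 25.9 RPKM. *Ifit3* and *Ifit1*, which bind foreign RNA, measured 562, 398 and 608 RPKM and 310, 210 and 312 RPKM. *Isg15*, a ubiquitin-like modifier, measured 384, 305 and 410 RPKM and stood at rank 36. *Cxcl10*, a chemokine that attracts T cells, measured 145, 99.0 and 153 RPKM, and *Rsad2*, the antiviral enzyme viperin, 134, 67.5 and 130 RPKM. In all 5 the lowest value was that of control 2. *Mx1* and *Mx2* have no value under a curated RefSeq mRNA accession and were not analysed here.

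The sensors, receptors and transcription factors of the list were lower. *Ddx58* and *Ifih1*, the sensors RIG-I and MDA5 of cytosolic RNA, measured 41.3 ± 5.01 and 29.3 ± 5.49 RPKM, and *Tlr3*, a sensor of endosomal double-stranded RNA, 14.1 ± 3.22 RPKM. *Tlr9*, which senses DNA, was at 0.0177 ± 0.00741 RPKM. The receptor chains *Ifnar1* and *Ifnar2* measured 5.70 ± 0.394 and 5.39 ± 0.574 RPKM, and *Stat2* and *Irf9*, factors that carry their signal, 22.5 ± 3.43 and 16.8 ± 1.04 RPKM. *Irf7*, a factor that is itself induced by interferon, measured 85, 58.8 and 95 RPKM. *Ifnb1*, interferon β, was at 0.333, 0.311 and 0.434 RPKM. A second list, of interferon-inducible GTPases and antigen presentation, was drawn up after the values were seen, and all 24 members reached 1 RPKM. *Iigp1*, a GTPase that attacks the vacuoles of intracellular parasites, measured 661, 416 and 651 RPKM, *B2m*, the light chain of MHC class I, 497, 315 and 452 RPKM, and H2-K1, a class I heavy chain, 168, 111 and 172 RPKM. Control 2 was lowest in 29 of 31 members of the first list and 24 of 24 of the second, and in 26 and 24 after scaling by the median of ratios. Over all genes of at least 1 RPKM it was lowest in 57.2% and, after scaling, in 41%. The Ifit, Gbp, Oas and H2 genes are families with similar copies among which reads can be split, so that levels of single members are uncertain.

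Interferon-stimulated genes are switched on by a factor complex with STAT2 and IRF9 that binds the interferon-stimulated response element (ISRE). The stretches of the 5 highest genes of the list that hold the ISRE core, here GAAA and GAAA with any 2 bases between them, or TTTC and TTTC on the other strand, are shown because these genes carry the result above. They are RefSeq sequences of GRCm38.p6, written 5′ to 3′ on the strand of the gene, lie before the start of transcription and have the core in capitals, with 20 bases on each side.
Isg15: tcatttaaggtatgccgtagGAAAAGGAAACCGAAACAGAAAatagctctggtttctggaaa
Ifit3: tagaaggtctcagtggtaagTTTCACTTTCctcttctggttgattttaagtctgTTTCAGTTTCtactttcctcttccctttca
Ifit1: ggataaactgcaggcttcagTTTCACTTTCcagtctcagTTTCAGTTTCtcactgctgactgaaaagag
Cxcl10: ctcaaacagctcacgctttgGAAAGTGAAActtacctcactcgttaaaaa
Rsad2: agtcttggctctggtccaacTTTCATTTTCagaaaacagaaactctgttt
The stretch of *Isg15* (chr4:156200855-156200916, minus strand) holds 3 overlapping cores in a row. Those of *Ifit3* (chr19:34583353-34583436, plus strand) and *Ifit1* (chr19:34640765-34640833, plus strand) hold 2 each, and those of *Cxcl10* (chr5:92349073-92349122, minus strand) and *Rsad2* (chr12:26456543-26456592, minus strand) hold 1. In the 250 bases before the start, searched on both strands, the core was found in 9 of 26 members of the list with a promoter sequence and in 11 of 19 of the GTPase and antigen presentation list, against 526 of 15213 genes, or 3.46%. Both lists were drawn up around known interferon targets, and the first also holds receptors, sensors and *Ifnb1*. The second was chosen after the values were seen. These shares therefore describe the lists and are no test, and a match is not a bound site.

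Of 28 genes of inflammatory secretion 20 reached 1 RPKM, beside 45.3% of all genes. *Ccl2*, which attracts monocytes, measured 85.6, 111 and 112 RPKM, and *Ccl7*, a related chemokine, 55.4, 81.6 and 71.6 RPKM. The cytokines that drive inflammation were low, with *Il6* at 2.11 ± 0.345 RPKM, *Tnf* at 0.329 ± 0.0834 RPKM and *Il1b* at 0.0510 ± 0.0399 RPKM. *Nfkbia*, the feedback inhibitor of NF-κB, measured 11.7, 11.1 and 13.5 RPKM.

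Of 36 cell cycle genes 32 reached 1 RPKM, with a median of 3.32 RPKM. The cell cycle inhibitor *Cdkn2c* was the highest at 50.3 ± 3.88 RPKM, and *Mki67*, a protein of dividing cells, measured 11.1, 16.0 and 11.3 RPKM. *Top2a* and *Cdk1*, a topoisomerase and the kinase of mitosis, measured 5.73 ± 1.07 and 3.57 ± 0.779 RPKM. Control 2 was the highest library in 23 of the 32 genes, against 22% of all genes, and in 25 against 35.9% after scaling by the median of ratios. All 32 genes of the stress and unfolded protein response list reached 1 RPKM. *Hspa5* and *Calr*, chaperones of the endoplasmic reticulum, measured 271, 302 and 303 RPKM and 208, 252 and 235 RPKM, while *Ddit3*, a factor of unresolved stress, measured 24.4 ± 3.86 RPKM and *Chac1*, a late target of the same pathway, 2.18 ± 0.532 RPKM. Of 18 p53 targets 16 reached 1 RPKM, beside 45.3% of all genes. *Ccng1*, a cyclin, measured 98.4 ± 9.67 RPKM, *Cdkn1a*, the inhibitor p21, 21.5, 14.8 and 17.5 RPKM, and *Mdm2*, the ligase that removes p53, 12.9 ± 0.363 RPKM. Of 23 immediate early genes 20 reached 1 RPKM. *Fos* and *Egr1*, transcription factors of the first response to stimuli, measured 6.75, 4.62 and 10.1 RPKM and 3.24, 1.35 and 4.97 RPKM, and *Fosb*, a relative of *Fos*, measured 0.0769 ± 0.0161 RPKM. All 26 antioxidant and iron genes reached 1 RPKM and were led, after *Ftl1*, by *Prdx1*, a peroxiredoxin (141 ± 5.16 RPKM), *Fth1*, the ferritin heavy chain (127 ± 11.3 RPKM), and *Cat*, catalase (117 ± 10.5 RPKM).

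Of 19 clock genes 12 reached 1 RPKM, beside 45.3% of all genes. *Clock* measured 13.2 ± 0.530 RPKM, its partner *Arntl* 2.48 ± 0.228 RPKM and the repressors *Per1* and *Per2* 0.790 ± 0.175 and 0.478 ± 0.0178 RPKM. Of 46 Hox and other positional genes, which record body position, 15 reached 1 RPKM, a smaller share than the 45.3% of all genes. The C cluster of Hox genes was the highest. Its genes summed to 31.5, 28.5 and 32.3 RPKM, against 13.5, 12.7 and 14.3 RPKM in the A cluster, 8.24, 7.62 and 7.67 RPKM in the B cluster and 2.48, 2.90 and 3.12 RPKM in the D cluster, and the order of the 4 clusters was the same in each library. *Hoxc10* led at 10.1, 9.18 and 10.6 RPKM and overlapped with *Hoxc8* at 10.5, 9.12 and 9.79 RPKM. *Hoxd11*, *Hoxd12* and *Hoxa13*, genes of the most posterior and distal parts, were at 0 in all 3 libraries. *Tbx15*, a factor of subcutaneous fat, measured 8.17, 8.31 and 8.39 RPKM. The Y-linked genes *Ddx3y*, an RNA helicase, and *Eif2s3y*, a translation initiation factor, measured 16.9, 9.38 and 9.74 RPKM and 10.2, 6.90 and 6.93 RPKM, so that cells of male mice were present in each library.

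Markers of other cell types were checked against the label. The lymphocyte list was at or near 0, as 7 of its 12 genes, among them *Cd3e*, *Ms4a1* and *Gzmb*, had no reads in any library and the others stayed under 0.05 RPKM. Of 7 erythroid genes the haemoglobin genes were at 0 and the highest was *Alas2*, a haem synthesis enzyme, at 0.481 ± 0.173 RPKM. Endothelial genes were under 1 RPKM apart from *Egfl7*, a secreted vessel protein, at 1.93 ± 0.0755 RPKM, and the defining markers *Pecam1*, *Cdh5* and *Vwf* measured 0.612 ± 0.0397, 0.304 ± 0.0746 and 0.00586 ± 0.00499 RPKM. Of 12 epithelial markers only *Krt19*, a keratin, passed 1 RPKM, at 15.1, 10.2 and 15.1 RPKM, while *Epcam* and *Cdh1* were at 0.0175 ± 0.0251 and 0.00551 ± 0.00541 RPKM. *Krt19* was also the only one of 8 mesothelial markers over 1 RPKM, with *Wt1* at 0.0989 ± 0.0640 RPKM and *Upk3b* at 0. Of 10 Schwann cell and neural markers *S100b* and *Ncam1*, a calcium-binding and an adhesion protein, passed 1 RPKM at 2.20 ± 0.363 and 1.19 ± 0.291 RPKM, while *Sox10*, which defines Schwann cells, was at 0.0211 ± 0.00839 RPKM. Of 12 skeletal muscle markers only *Acta1*, an actin, passed it, at 2.31, 4.8 and 1.91 RPKM, and *Myod1* and *Pax7*, which define muscle precursors, were at 0. Of 10 mural cell markers *Ndufa4l2* and *Mcam*, an adhesion molecule, passed it, the first of which is described with the variable genes. Macrophage genes differed between libraries, and 4 of 14 reached 1 RPKM, beside 45.3% of all genes. *Lyz2*, lysozyme, measured 6.85, 22.9 and 6.30 RPKM, *C1qa*, a complement subunit, 0.201, 2.54 and 0.294 RPKM, and *Cd68*, a lysosomal protein of phagocytes, 0.814, 2.07 and 0.820 RPKM. The summed level of the 14 macrophage markers with a value was 10.4, 36.9 and 10.6 RPKM in controls 1, 2 and 3. *Ptprc*, the leukocyte antigen CD45, stayed at 0.0193, 0.0758 and 0.0537 RPKM, and *Adgre1* has no value here. The part of such cells in the shifts of control 2 was not tested.

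The spread between libraries was small for most genes. Over the 9274 genes of at least 1 RPKM the coefficient of variation (CV), the SD over the mean, had a median of 8.82%, and 915 genes, or 9.87%, were over 20%. It was smallest from 3 to 10 RPKM, at 8.02%, and rose again with the level to 10.5% among the 176 genes of at least 100 RPKM. At that level a gene had a median of 24254 reads per library and a median counting error of 0.642%. Between 0.1 and 1 RPKM the median CV was 18.3%, where the median counting error was 11%. For controls 1 and 3 alone the median over genes of at least 1 RPKM was 5.37%, against 8.15% for controls 2 and 3 and 8.52% for controls 1 and 2. Pearson's r of log2(RPKM + 1) across these 9274 genes of the same pipeline was 0.995 for controls 1 and 3, 0.986 for controls 1 and 2 and 0.988 for controls 2 and 3, as a description only, since genes are no independent replicates.

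**Figure D4:**
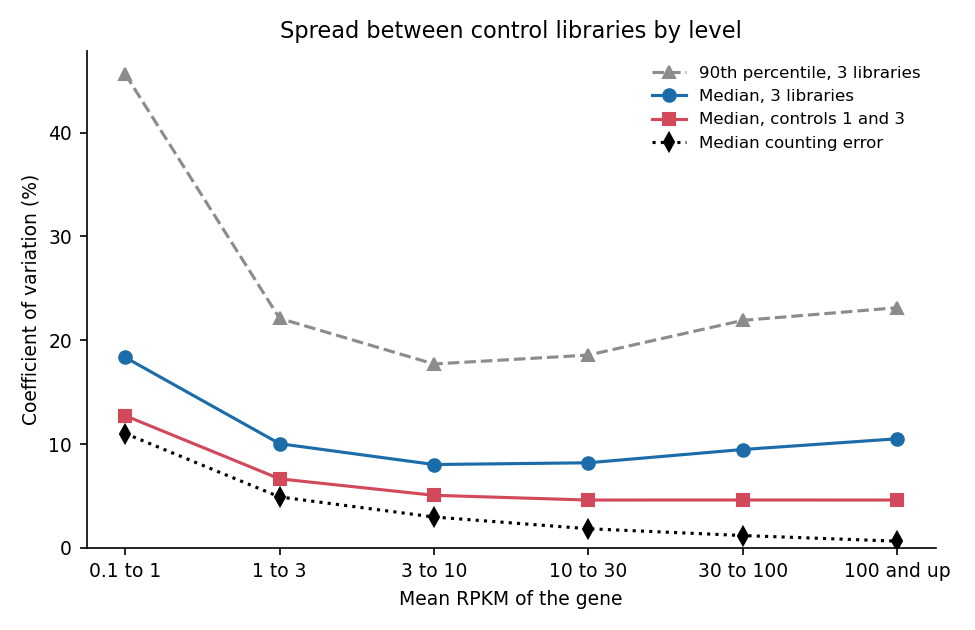
Coefficient of variation between control libraries in percent (vertical axis) for genes grouped by mean RPKM (horizontal axis), as the median and 90th percentile over 3 libraries, the median over controls 1 and 3, and the median counting error. Without control 2 the median stays near 4.6% from 10 RPKM upwards, while with it the median rises from 8.19 to 10.5%.

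Most of the 10 most variable genes of at least 10 RPKM were set apart by control 2. Among the 25 with the largest CV, control 2 was lowest in 18 and highest in 6. Over all 9274 genes of at least 1 RPKM it was lowest in 57.2% and highest in 22%. *Acyp2*, an acylphosphatase, led with 21.9, 5.55 and 6.19 RPKM (CV 82.6%), and here control 1 stood apart. Higher in control 2 were *Lyz2*, *Myl9*, a regulatory light chain of smooth muscle myosin (14.7, 44.8 and 19 RPKM), *Acta2*, smooth muscle α-actin (56.2, 149 and 68.8 RPKM), *Tagln*, transgelin, an actin-binding protein (37.1, 95.7 and 45.4 RPKM), and *Spp1*, osteopontin (15.5, 33.6 and 13.5 RPKM). Lower in control 2 were *Ndufa4l2*, a mitochondrial protein induced by low oxygen (24.7, 5.40 and 28.5 RPKM), *Ppp1r3c* and *Ppp1r3b*, which bring a phosphatase to glycogen (25.3, 6.41 and 24.2 RPKM and 23.3, 6.48 and 23.4 RPKM), and *Apln*, the peptide apelin (16.0, 5.46 and 19.3 RPKM). In these 9 genes controls 1 and 3 differed far less, with a CV over the pair from 0.490 to 17.9%.

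The least variable genes were mainly of general cell function. *Ccnl2*, a cyclin of splicing, measured 14.0, 13.9 and 14.0 RPKM (CV 0.0741%), *Rac1*, a small GTPase, 42.6, 42.6 and 42.5 RPKM (0.173%), and *Rad23b*, a shuttle to the proteasome, 22.5, 22.6 and 22.7 RPKM (0.363%). *Mdfic*, an inhibitor of myogenic factors, *Ywhae*, a 14-3-3 protein, *Zfp445*, a zinc finger factor, *Hnrnpf*, an RNA-binding protein, *Hspa4*, a chaperone, and *Asnsd1* followed with CV values from 0.256 to 0.790%. Since 2536 genes were ranked, the first of them are the extremes of many and are not shown to be steadier than their neighbours. Their small CV values hold for RPKM as given. After scaling by the median of ratios the SD rose from 0.0103 to 0.482 RPKM in *Ccnl2* and from 0.0735 to 1.55 RPKM in *Rac1*.

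Several gene groups lay lower or higher in control 2. A list of 27 hypoxia-regulated genes was drawn up after these values were seen and only restates what led to it. Control 2 was lowest in 26 of its 26 members of at least 1 RPKM, beside 57.2% of all genes. The median difference from the mean of the other 2 libraries was -0.94 on the log2(RPKM + 1) scale, beside -0.08 over all 9274 genes. *Bnip3*, a mitophagy receptor, measured 280, 115 and 253 RPKM, *Egln3*, an oxygen-sensing hydroxylase, 29.2, 9.85 and 32.8 RPKM, and *Vegfa*, the angiogenic factor, 43.1, 23.3 and 44.8 RPKM. *Hilpda*, a droplet protein that inhibits lipolysis, measured 22.0, 8.12 and 24.2 RPKM. The glycolysis list, which shares members with it, had a median difference of -0.71. The list of interferon-inducible GTPases and antigen presentation had -0.58, the immediate early list -0.49 and the interferon list -0.46. Genes of the glucocorticoid and cAMP response had -0.34, fatty acid oxidation -0.33 and the TCA cycle -0.29. The thermogenic list had -0.28, the respiratory chain -0.26 and the adipocyte list -0.23.

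The cytoskeleton list moved the other way, with control 2 highest in 24 of 36 members, beside 22% of all genes, or 28 after scaling by the median of ratios, beside 35.9%, and a median difference of 0.28. *Actb* measured 603, 966 and 684 RPKM, *Tpm1*, a tropomyosin, 31.8, 60.5 and 34.7 RPKM, and *Cnn1*, calponin of smooth muscle, 0.639, 2.32 and 0.656 RPKM. *Ctgf* and *Thbs1*, matrix genes that respond to stretch and to TGF-β, measured 4.68, 19.8 and 5.08 RPKM and 57.1, 110 and 55.4 RPKM. *Myh11*, the myosin of differentiated smooth muscle, stayed under 1 RPKM in each library at 0.399, 0.634 and 0.305 RPKM, and *Rgs5*, a marker of pericytes, at 0.128, 0.0628 and 0.0527 RPKM. Of the other lists, cell cycle genes had a median difference of 0.26. Control 2 was highest in 26 and lowest in 14 of 45 matrix genes, with a median difference of 0.08. In the stress list it was highest in 18 and lowest in 11 of 32 genes, also with 0.08. Over all genes it was highest in 22% and lowest in 57.2%. After scaling it was highest in 33 and lowest in 4 matrix genes, and in 21 and 9 stress genes. Over all genes the scaled shares were 35.9 and 41%.

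Many contractile genes carry a CArG box, the site of serum response factor. The 4 of 30 genes of the list with a promoter sequence that hold it in the 250 bases before the start are shown, with the box in capitals and 20 bases on each side, against 231 of 15213 genes, or 1.52%.
Myl9: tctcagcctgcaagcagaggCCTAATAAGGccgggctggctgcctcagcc
Cnn2: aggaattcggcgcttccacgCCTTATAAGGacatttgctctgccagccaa
Actg1: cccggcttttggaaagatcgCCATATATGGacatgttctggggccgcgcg
Myl6: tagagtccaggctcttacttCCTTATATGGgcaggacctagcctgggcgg
They lie at chr2:156775283-156775332 (plus strand), chr10:79988524-79988573 (plus strand), chr11:120348556-120348605 (minus strand) and chr10:128493030-128493079 (minus strand) of GRCm38.p6, and the pattern searched for is its own reverse complement, so that both strands are covered. *Cnn2*, a calponin, measured 13.9, 24.8 and 16.6 RPKM, *Actg1*, cytoplasmic γ-actin, 26.1, 33.0 and 27.4 RPKM, and *Myl6*, a myosin light chain, 18.1, 24.5 and 22.4 RPKM. Control 2 was highest in all 4, as in most of the list, and a match is a description of the letters only. The list was drawn up with earlier results of these data known, so the share of boxes describes the list and is no test.

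**Figure D5:**
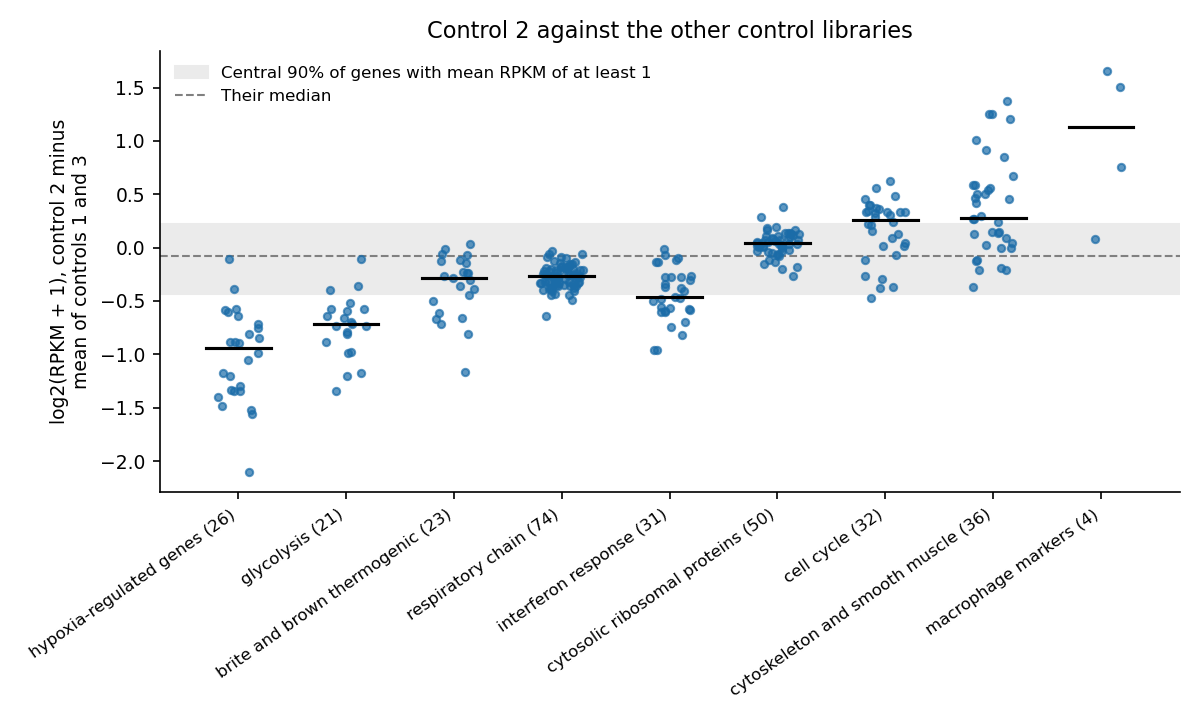
Difference between control 2 and the mean of controls 1 and 3 in log2(RPKM + 1) (vertical axis) for each gene of at least 1 RPKM in 9 lists (points, number in brackets), with the list median as a bar, the central 90% of all 9274 genes, from -0.44 to 0.22, as a grey band and their median of -0.08 as a dashed line. The hypoxia, glycolysis and interferon lists have medians below the band, at -0.94, -0.71 and -0.46, the first of which was chosen after the values were seen, and 3 of the 4 macrophage markers lie above it.

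Reference genes were not equally steady, and 22 of 24 reached 1 RPKM. *Hprt*, a purine salvage enzyme, measured 48.1, 43.7 and 46.3 RPKM, *Tbp*, the TATA-binding protein, 3.76, 3.72 and 3.59 RPKM, and *Gtf2b*, a general transcription factor, 7.41, 7.43 and 8.25 RPKM. *Actb* had a CV of 25.4% and *B2m* one of 22.5%, both through control 2 and in opposite directions. *Gapdh*, a glycolytic enzyme that is abundant in most cells, was given as 0.645, 0.379 and 0.516 RPKM, and *Ppia*, cyclophilin A, as 0.610, 0.463 and 0.627 RPKM. Of the 50-base windows of the *Gapdh* transcript, 82.5% also occur in transcripts of 218 other genes in Gencode vM21, and for *Ppia* the share is 40.5%, whereas for *Fabp4* and *Ucp1* it is 0. A large share does not go with a low value in every case, as *Eef1a1* at 987 RPKM shares 59.2% and *Ftl1* at 777 RPKM shares 78.9%. Levels of all such genes are uncertain in this table, high ones included. This also holds for cytosolic ribosomal proteins, of which 27 of 77 were under 1 RPKM. Among the 38 with at least 50% of windows shared the median was 1.25 RPKM and 19 were under 1 RPKM, against 15.2 RPKM and 8 of 38 among those with a smaller share, while *Rpl41* at 867 RPKM shares 53.1% and is an exception. *Rps27*, at 0.0123 RPKM, shares 98.6%. In the respiratory chain list the 2 genes under 1 RPKM, *Ndufs5* and *Atp5g2*, share 41.2 and 87.4%. How reads with several matches were treated for this table is not given in the sources used here, and the link between shared windows and low values was not tested further.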

How the data were processed

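Total RNA of 3 samples labelled as nontargeting control was sequenced by the authors, who deposited 1 table of RPKM values with decimal commas and 168326 lines for transcript accessions. How this table was made is not given in the sources used here, and the alignment by STAR to GRCm38 is stated for the splice analysis only. The 3 knockdown columns were not used. After 305 exact repeats were dropped, 26275 lines with NM_ accessions were averaged per symbol to 20461 genes. Levels are means ± SD over 3 libraries, and no test was run on 1 group. The text names the 25 highest genes, the 10 most and 10 least variable genes among those whose mean reached 10 RPKM, and the highest, lowest and defining members of 37 gene lists. Some genes that this rule names are not reported here. Members and lists were chosen with earlier results of these data known, and 3 lists (hypoxia-regulated genes, interferon-inducible GTPases and antigen presentation, cytosolic ribosomal proteins) after the values used here were seen. Depth was recovered from Ensembl transcripts with a Gencode vM21 length, for which 96.7, 96.7 and 97.1% of low values are whole reads within 0.1 read. The scripts were tested on simulated data, and a simulated CV of 10% over 9274 genes gave a median of 8.32%, where 8.33% is expected for 3 values. Alternatives were the highest NM_ accession, all accessions, repeats kept, median of ratios scaling, RPKM rescaled to a common sum per library, other filters and pseudocounts, and leaving out each library. Python 3.11.15, pandas 2.3.3, numpy 2.4.6 and matplotlib 3.10.9 were used.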

Additional observations from a re-analysis of the deposited data

How the results depend on the processing

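No paired analysis was possible because only the control group was used and no test was run. The number of genes of at least 1 RPKM was 9254 to 12083 under the alternatives run. With all accessions averaged, 23358, 336 and 25 genes reached 0.1, 100 and 1000 RPKM, and the 10, 100 and 1000 highest symbols held 79.0, 85.3 and 93.0% of the sum. Of the added lines, 9 of unnamed clones exceed 10000 RPKM. Rescaled to a common sum per library as in TPM, 8542, 1869 and 113 genes reached 10, 100 and 1000, and 26 lists in place of 15 had a median of at least 10, since every value grows. The median CV of 8.82% became 13.2% without a filter on low values and 6.95% as the SD of log2(RPKM + 1), and ranged from 5.37 to 8.52% when 1 library was left out. The lowest value is that without control 2. A CV over 2 values also runs lower than over 3. Median of ratios scaling moved none of 37 list medians and none of the 55 genes recomputed by more than 1 SD. Averaging all accessions moved 17 of the 37 list medians and 31 of the 55 genes by more than 1 SD. The other 20 medians and 24 genes stayed within it. *Sparc*, as an example, went from 619 to 232 RPKM, so named levels depend on the accessions taken. Depth limits levels under about 0.05 RPKM, and without untransfected cells the part of the transfection in the levels cannot be told apart.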

Other observations

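Noncoding and mitochondrial transcripts lie outside the curated mRNA accessions. The highest line of *Malat1*, a nuclear long noncoding RNA, gave 1676, 1840 and 1577 RPKM in controls 1, 2 and 3, and that of *Neat1*, which builds paraspeckles, 75.1, 80.5 and 60.2 RPKM. H19, an imprinted noncoding RNA, had 7.99, 8.16 and 11.3 RPKM on its highest line. For *Ctcflos* itself (*1300015D01Rik*), the target of the knockdown arm, the highest of 6 lines gave 1.11, 1.28 and 1.31 RPKM. Of the mitochondrial genome, *mt-Co1*, a subunit of cytochrome c oxidase, gave 6334, 6862 and 6470 RPKM, or 0.979, 1.06 and 1.00% of all mapped reads, and *mt-Nd1*, a subunit of complex I, 3403, 3790 and 3436 RPKM. By contrast *mt-Co2*, which is transcribed from the same strand, was given as 1.93, 0.461 and 1.23 RPKM and *mt-Atp6* as 1.09, 0.241 and 0.841 RPKM. The cause of this gap was not tested. A further 9 lines of unnamed GenBank clones exceed 10000 RPKM, the highest at 180078, 180614 and 175241 RPKM, and were not used.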
